A study of Arabidopsis thaliana with 12 samples.

Results

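Coding isoform switches were described in rosette leaves of Arabidopsis thaliana, as loci where the share of the first coding model differed between wild-type (WT) leaves given latrunculin B and WT leaves given DMSO. Of 27313 loci, 4471 had 2 or more coding models, and 2316 of these had a summed TPM (transcripts per 1000000, a level per length and per library) of 5 or more in all 12 libraries. A model 1 (the suffix 1 after the dot) was at hand for 2269 of them, the eligible loci, and the 47 others were left out. The share was the TPM of model 1 as a percentage of the summed TPM of its locus. A locus was a member where the mean share differed by 20 percentage points or more between the WT groups and the 3 and 3 libraries did not overlap. This chose 58 members, 2.56% of the eligible loci. The model 1 share was lower with latrunculin B in 40 members (1.76% of the eligible loci) and higher in 18 (0.793%). The members were thus selected on the WT shares, which are given as a description with no test, and only the sid2 libraries are independent of the difference.

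The plants were Col-0 (WT) or sid2, a mutant of ICS1, the enzyme that starts the main route to salicylic acid; its allele is not named. Leaves of 4-week-old plants kept at 22 °C under days of 10 h and nights of 14 h were infiltrated with 1 µM latrunculin B (latB), a drug that binds actin monomers and takes filaments apart, or with 0.01% DMSO, its solvent, and RNA was taken 24 h later. The groups were WT latB, WT DMSO, sid2 latB and sid2 DMSO, each with 3 libraries. Whether these came from separate plants is not stated, so p-values measure only the spread between these samples, which may be technical.

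A plant gene can give several coding models, because transcription or translation starts at different places or because exons are joined differently. A model that starts further downstream lacks the first residues of the protein, which in proteins of chloroplasts and mitochondria often hold the targeting peptide. At a NAGNAG acceptor, where one AG follows directly on another, the choice of splice site adds or drops a single residue. SR proteins and other RNA-binding factors steer the choice of splice sites, and RNA surveillance removes many faulty products.

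Library totals lay between 14506962 and 22449387 estimated reads. ICS1 (named EDS16 in the reference annotation) is transcribed from the mutant gene too: it had 299 to 385 CPM (counts per 1000000 reads) in sid2 latB, 365 to 372 CPM in sid2 DMSO, 111 to 161 CPM in WT latB and 21.6 to 23.9 CPM in WT DMSO. Its level therefore does not check the labels. PR1, a marker of salicylic acid response, lay between 1.68 and 7.58 CPM in sid2 latB, between 0 and 0.357 CPM in sid2 DMSO, between 3688 and 5267 CPM in WT latB and between 79.4 and 153 CPM in WT DMSO. The estimated reads of a member locus ran from 24 to 44247 per library, and the median over members of the lowest library was 348. The median summed TPM was 21.5 in members and 25.2 in all eligible loci.

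**Figure D1:**
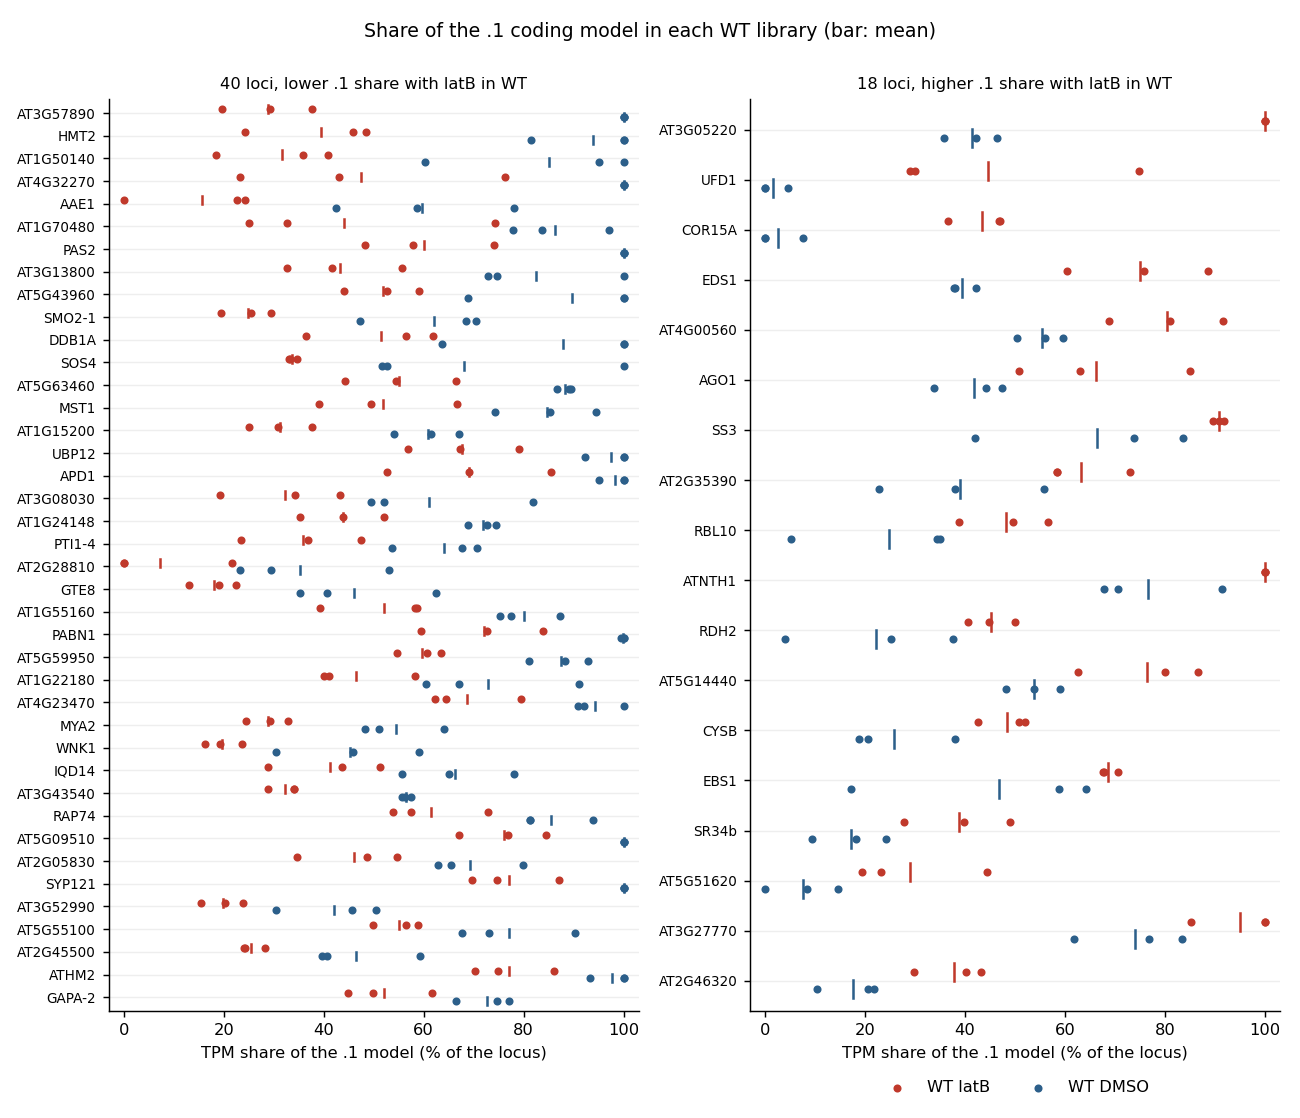
Share of model 1 in percent of the TPM of its locus, for the 40 members with a lower share (left) and the 18 with a higher share (right) in WT latB. Each point is a library, red for WT latB and blue for WT DMSO, and the short bars are means of 3; the colours do not overlap in any row because the rule required it.

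The switches went both ways. Over the 40 members with a lower model 1 share, its median was 42.4%, 47.8% and 42.4% in the WT latB libraries, against 81.2%, 76.6% and 77.9% in the WT DMSO libraries. Over the 18 members with a higher model 1 share, the median was 64.1%, 60.7% and 60.5% in WT latB, against 34.8%, 44.4% and 36.3% in WT DMSO. In 6 members (AT3G57890, AT4G32270, PAS2, PABN1, AT5G09510 and SYP121) model 1 held over 99% of the TPM in every WT DMSO library, and in 5 of them it held 100% there; PABN1 had 99.5% in WT DMSO replicate 2. In 24 of the 40, mean TPM was lower for model 1 and higher for the remaining models in WT latB. In another 13 both were higher and in 3 both were lower. Of the 18, 10 had more of model 1 and less of the others, 6 had more of both and 2 had less of both. These counts are on TPM, which is relative within a library. In limma on log2(TPM + 1), the median log2 difference of all loci between WT latB and WT DMSO was 0.31. The part of this shift in the counts was not tested.

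EDS1, SYP121, MYA2, WNK1 and PTI1-4 are members with roles in immunity, secretion, movement on actin or signalling. EDS1 (AT3G48090) encodes a lipase-like protein that relays signals from immune receptors with a TIR domain. Model 1 codes for 1872 bases and model 2 for 1548, and 324 bases at the 5′ end belong to model 1 alone. Model 2 has 0 coding bases of its own. The first 30 coding bases of each model are shown because they mark the 2 annotated starts. The capitals mark the start codon, and the stretches lie at chr3:17757663-17757692 and chr3:17757263-17757292 on the minus strand of TAIR10.1.
EDS1 model 1: ATGgcgtttgaagctcttaccggaatcaat
EDS1 model 2: ATGgctgtgaggagtagaaaacagatagtg
The model 1 share was 60.5%, 75.8% and 88.6% in WT latB, against 38.1%, 42.3% and 37.8% in WT DMSO. Model 1 had 46.7, 58.8 and 74.1 TPM in WT latB, against 11.2, 9.98 and 11.4 TPM in WT DMSO. Model 2 had 30.5, 18.8 and 9.49 TPM in WT latB, against 18.1, 13.6 and 18.8 TPM in WT DMSO. Model 1 was thus higher in each WT latB library than in any WT DMSO library, while model 2 overlapped. EDS1 has a near-identical neighbour, AT3G48080, so the split of reads between the copies is uncertain.

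SYP121 (AT3G11820), a plasma membrane syntaxin of secretion and of resistance to fungal entry, had a model 1 share of 69.7%, 87.1% and 74.7% in WT latB, against 100% in each WT DMSO library. Model 2, which lacks the first 93 coding bases, had 16.2, 7.39 and 18.2 TPM in WT latB and no assigned reads in WT DMSO. Model 1 had 37.3, 49.99 and 53.7 TPM in WT latB, against 32.8, 31.8 and 46.6 TPM in WT DMSO, and overlapped between them. The lower share therefore goes with more of model 2. Model 2 has 0 coding bases of its own, so its TPM rests on how reads were divided between the models. Use of its start codon was not observed. The coding start is shown because the models differ there. It lies at chr3:3730761-3730868 on the minus strand of TAIR10.1, with the bases that only model 1 holds in capitals.
SYP121 start: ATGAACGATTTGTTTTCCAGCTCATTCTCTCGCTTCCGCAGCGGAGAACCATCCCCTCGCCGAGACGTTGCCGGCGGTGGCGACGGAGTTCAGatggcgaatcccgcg

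MYA2 (AT5G43900) encodes a class XI myosin, a motor that moves along actin filaments. Its model 1 share was 24.5%, 32.9% and 29.2% in WT latB, against 48.2%, 64.2% and 51.0% in WT DMSO. Model 1 overlapped between the groups, with 5.39, 7.49 and 7.51 TPM in WT latB and 4.02, 6.17 and 4.66 TPM in WT DMSO. The remaining models had 16.6, 15.3 and 18.3 TPM in WT latB, against 4.33, 3.45 and 4.47 TPM in WT DMSO, and did not overlap. The main alternative, model 3, starts upstream of model 1 and holds 180 further coding bases. Both starts are shown, with the start codon in capitals; model 1 begins at chr5:17666296-17666653, a stretch that spans an intron, and model 3 at chr5:17667384-17667413, both on the minus strand of TAIR10.1.
MYA2 model 1: ATGgttgctaacttcaatccatcagtgggg
MYA2 model 3: ATGttcctagatgcagccaagtcagattct
WNK1, a protein kinase of the with-no-lysine family, had a model 1 share of 19.3%, 23.7% and 16.2% in WT latB, against 30.4%, 45.9% and 59.2% in WT DMSO. PTI1-4, a receptor-like cytoplasmic kinase, had 36.9%, 47.5% and 23.4% in WT latB, against 53.8%, 67.7% and 70.6% in WT DMSO. In both kinases the most abundant of the other models lacks the first coding bases of model 1. The WT groups do not overlap, as the rule required.

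Several members are enzymes of metabolism or plastid proteins. AAE1, an acyl-activating enzyme, had a model 1 share of 22.7%, 0% and 24.2% in WT latB, against 58.6%, 78.0% and 42.4% in WT DMSO. HMT2, a homocysteine methyltransferase, had 48.5%, 24.2% and 45.9% in WT latB, against 100%, 100% and 81.4% in WT DMSO. PAS2, a dehydratase of very-long-chain fatty acid elongation, had 74.1%, 48.2% and 57.9% in WT latB, against 100% in each WT DMSO library. In these 3 loci the remaining models had more TPM in every WT latB library than in any WT DMSO library: for AAE1 9.597, 10.0 and 7.26 TPM in WT latB, against 3.74, 2.13 and 4.46 TPM in WT DMSO. For HMT2 they had 4.30, 6.62 and 4.72 TPM in WT latB, against 0, 0 and 2.49 TPM in WT DMSO. The sterol methyl oxidase SMO2-1 had a mean model 1 share of 24.8% ± 4.96 in WT latB and 62.1% ± 12.8 in WT DMSO (SD, n = 3 each). The pyridoxal kinase SOS4 had 33.6% ± 0.868 in WT latB and 68.1% ± 27.6 in WT DMSO, where its replicate 1 stood at 100% and the others at 52.7% and 51.7%.

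Paralogs were found on both sides. The mercaptopyruvate sulfurtransferase MST1 had a mean model 1 share of 51.8% ± 14.0 in WT latB and 84.7% ± 10.2 in WT DMSO, and its paralog RDH2 had 45.2% ± 4.72 in WT latB and 22.2% ± 17.0 in WT DMSO. In MST1 model 1 is the one with the longer 5′ end, and in RDH2 it is the shorter, so in both loci the longer model had the lower share in WT latB. Starch synthase SS3 had 90.8%, 91.8% and 89.7% in WT latB, against 73.8%, 83.5% and 42.0% in WT DMSO, and there too model 1 is the shorter model at the 5′ end. The chloroplast thioredoxin ATHM2 had 70.2%, 86.0% and 74.8% in WT latB, against 100%, 100% and 93.2% in WT DMSO. GAPA-2, a subunit of chloroplast glyceraldehyde-3-phosphate dehydrogenase and the most deeply read member, had 44.8%, 61.7% and 49.9% in WT latB, against 66.5%, 74.6% and 77.0% in WT DMSO. Its model 1 had 348, 454 and 266 TPM in WT latB, against 1006, 1085 and 931 TPM in WT DMSO. The remaining GAPA-2 models overlapped between the groups, with 429, 281 and 268 TPM in WT latB and 507, 369 and 278 TPM in WT DMSO, and reads of the paralog GAPA may be divided with it.

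COR15A (AT2G42540), a chloroplast protein that protects membranes in frozen or dry leaves, has a model 1 that starts 36 coding bases downstream of model 2. The start is shown because only these bases tell the pair apart; it lies at chr2:17711916-17711966 on the minus strand of TAIR10.1, with the bases absent from model 1 in capitals.
COR15A start: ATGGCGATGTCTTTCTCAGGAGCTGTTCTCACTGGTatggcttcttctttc
The model 1 share was 46.9%, 46.8% and 36.5% in WT latB, against 7.64%, 0% and 0% in WT DMSO. Model 1 had 89.3, 94.5 and 59.0 TPM in WT latB, against 34.3, 0 and 0 TPM in WT DMSO. The remaining models had 101, 108 and 102 TPM in WT latB, against 415, 286 and 146 TPM in WT DMSO. Thus the other models were lower and model 1 higher in each WT latB library than in any WT DMSO library. COR15B lies beside COR15A and is similar in sequence, so the locus total is uncertain between them. CYSB, an inhibitor of cysteine proteases, had a model 1 share of 52.0%, 42.5% and 50.9% in WT latB, against 38.0%, 20.5% and 18.9% in WT DMSO.

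Members of RNA and protein handling differed in both directions. PABN1, a nuclear poly(A)-binding protein, had a model 1 share of 72.6%, 59.4% and 83.9% in WT latB, against 100%, 99.5% and 100% in WT DMSO. AGO1, the main Argonaute of microRNA silencing, had 50.8%, 63.1% and 84.95% in WT latB, against 33.8%, 47.4% and 44.1% in WT DMSO. SR34b, a splicing factor of the SR family, had 39.8%, 49.0% and 27.8% in WT latB, against 9.42%, 18.2% and 24.1% in WT DMSO, and its copy SR34 may take some of its reads. RAP74, a subunit of the general transcription factor TFIIF, had 72.9%, 57.5% and 53.9% in WT latB, against 81.2%, 81.2% and 94.0% in WT DMSO. The bromodomain protein GTE8 had 22.5%, 18.9% and 12.9% in WT latB, against 40.6%, 62.4% and 35.2% in WT DMSO. DDB1A, the adaptor of CUL4 ubiquitin ligases, had 56.5%, 61.8% and 36.4% in WT latB, against 63.8%, 100% and 100% in WT DMSO.

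UFD1 (AT2G21270), which helps the ATPase CDC48 to draw out ubiquitin-tagged proteins, had a model 1 share of 74.8%, 29.0% and 30.1% in WT latB, against 0%, 4.66% and 0% in WT DMSO. Its model 1 had 28.6, 10.9 and 13.0 TPM in WT latB, against 0, 1.05 and 0 TPM in WT DMSO. Model 3 had 9.63, 26.8 and 30.2 TPM in WT latB and 24.9, 21.6 and 23.6 TPM in WT DMSO, and overlapped. The 2 starts are shown, with the start codon in capitals; both stretches span an intron and lie on the plus strand of TAIR10.1, model 1 at chr2:9108126-9108264 and model 3 at chr2:9107841-9108092.
UFD1 model 1: ATGtttttcgatggataccattatcatgga
UFD1 model 3: ATGgttcttcgattttgttgccatttgtta

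Of the members named by ID only, AT3G57890, annotated with a tubulin-binding cofactor C domain, showed the largest difference of all 58. Its model 1 share was 29.2%, 19.6% and 37.6% in WT latB, against 100% in each WT DMSO library. Model 2, which holds an exon of 108 further bases, had 15.3, 17.4 and 15.4 TPM in WT latB and no assigned reads in WT DMSO. AT1G50140, annotated as an ATPase, had a model 1 share of 40.9%, 18.4% and 35.8% in WT latB, against 95.2%, 60.3% and 100% in WT DMSO. Here model 1 holds the extra exon, of 66 bases, and in DDB1A it holds one of 63 bases. Thus the form with the exon was higher in WT latB for AT3G57890 and lower for AT1G50140 and DDB1A. The exons are shown with 15 bases on each side, because their use is what the share measures; capitals mark the exon, at chr3:21439274-21439411 (plus strand), chr1:18575733-18575828 (minus strand) and chr4:2747898-2747990 (plus strand) of TAIR10.1.
AT3G57890 exon: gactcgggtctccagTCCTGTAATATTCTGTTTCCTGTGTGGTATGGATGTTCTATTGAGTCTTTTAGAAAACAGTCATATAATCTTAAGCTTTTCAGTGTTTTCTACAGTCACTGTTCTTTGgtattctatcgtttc
AT1G50140 exon: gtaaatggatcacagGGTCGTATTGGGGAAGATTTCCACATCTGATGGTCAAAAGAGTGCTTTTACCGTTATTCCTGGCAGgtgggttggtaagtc
DDB1A exon: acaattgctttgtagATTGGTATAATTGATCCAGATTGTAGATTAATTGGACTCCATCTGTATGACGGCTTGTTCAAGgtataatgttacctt

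AT1G70480, annotated with a DUF220 domain, had a model 1 share of 25.0%, 74.2% and 32.7% in WT latB, against 83.7%, 97.0% and 77.9% in WT DMSO. Model 2 starts 54 coding bases upstream, at chr1:26562250-26562318 on the plus strand of TAIR10.1, shown with the bases absent from model 1 in capitals because the locus differs in the same direction in both genotypes.
AT1G70480 start: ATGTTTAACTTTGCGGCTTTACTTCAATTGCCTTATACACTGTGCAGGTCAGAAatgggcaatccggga
AT3G05220, annotated with a heavy-metal-associated domain, had a model 1 share of 100% in each WT latB library, against 35.9%, 46.5% and 42.2% in WT DMSO. AT4G32270, annotated as ubiquitin-like, had 76.3%, 23.2% and 43.1% in WT latB, against 100% in each WT DMSO library, with as few as 75 reads for the locus in a library. AT4G00560, annotated with a nucleotide-binding Rossmann fold, had 91.7%, 68.8% and 81.0% in WT latB, against 50.5%, 59.5% and 56.0% in WT DMSO. As the rule required, the WT groups did not overlap in these 3 loci.

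A small group differed by a few bases only. In 7 members the pair of models differed by 12 bases or fewer. UBP12, a ubiquitin-specific protease, IQD14, a calmodulin-binding protein, EBS1, a glucosyltransferase that checks glycoprotein folding in the endoplasmic reticulum, and AT5G14440, annotated as a SURF2 protein, differed by 3 bases at a splice acceptor. The sequences are shown because they hold the NAGNAG motif; capitals mark the bases that only one model keeps, which are in model 1 for UBP12, IQD14 and AT5G14440 and in model 2 for EBS1. They lie at chr5:2027488-2027525 (minus strand), chr2:18109460-18109497 (plus), chr1:26849631-26849668 (plus) and chr5:4656159-4656196 (minus) of TAIR10.1.
UBP12 acceptor: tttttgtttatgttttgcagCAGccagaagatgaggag
IQD14 acceptor: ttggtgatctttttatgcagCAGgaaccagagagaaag
EBS1 acceptor: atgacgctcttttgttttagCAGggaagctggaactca
AT5G14440 acceptor: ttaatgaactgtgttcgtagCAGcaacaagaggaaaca
The form with the extra residue was lower in WT latB in 3 of the 4. For UBP12 the share of model 1 was 67.2%, 79.2% and 56.8% in WT latB, against 100%, 92.3% and 100% in WT DMSO. For IQD14 it was 43.7%, 28.9% and 51.3% in WT latB, against 55.6%, 65.1% and 78.0% in WT DMSO. For EBS1, whose model 1 lacks the 3 bases, it was 67.7%, 67.7% and 70.6% in WT latB, against 17.2%, 64.2% and 58.9% in WT DMSO. AT5G14440 went the other way, with 80.1%, 86.7% and 62.7% in WT latB, against 59.1%, 48.2% and 53.9% in WT DMSO. Such 3-base acceptor differences made up 4 of 53 members (7.55%), against 164 of 2062 remaining loci (7.95%), so their share was near the background. The motif NAGNAG was found at 4 of 4 such sites in members and at 161 of 162 in the remaining loci whose models differ by 1 unbroken stretch of 3 bases and nothing else (99.4%); the letters searched were NAGNAG on the gene's strand, ending at the last of the 3 bases.

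A difference of 6 bases was found in AGO1 and in the DNA repair glycosylase ATNTH1. The capitals are in model 2 alone for AGO1, at chr1:17890629-17890669, and in model 1 alone for ATNTH1, at chr2:13403871-13403911, both on the minus strand of TAIR10.1; they are shown because a second AG lies 6 bases after the first.
AGO1 acceptor: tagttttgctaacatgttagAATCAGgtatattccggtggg
ATNTH1 acceptor: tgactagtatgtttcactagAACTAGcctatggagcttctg
ATNTH1 had a model 1 share of 100% in each WT latB library, against 70.7%, 91.4% and 67.8% in WT DMSO. The plastid rhomboid-like protein RBL10, with 21 bases between its acceptors, had 56.6%, 49.5% and 38.7% in WT latB, against 5.11%, 34.4% and 34.9% in WT DMSO.

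The other members are known mostly by domain. With a lower model 1 share in WT latB stood AT3G13800 (a metallo-hydrolase, -39.2 points) and AT5G43960 (an RNA-binding protein with an NTF2 domain, -37.8 points). AT5G63460, AT1G15200, APD1, AT3G08030, AT1G24148, AT2G28810, AT1G55160, AT5G59950, AT1G22180, AT4G23470, AT3G43540, AT5G09510 (a ribosomal protein), AT2G05830, AT5G55100 and AT2G45500 ran from -33.3 to -21.0 points. With a higher model 1 share stood AT2G35390 (a phosphoribosyltransferase, 24.3 points), AT5G51620 (21.3 points) and AT3G27770 (21.0 points). AT5G51620 was the shallowest member, with as few as 24 reads in a library. Nearest inside the threshold were AT2G46320, a mitochondrial carrier, at 20.2 points, and GAPA-2 at -20.6 points. Nearest outside it, with groups that did not overlap, were MENG at -19.9 points and LHCA3 at -19.9 points. Another 86 eligible loci passed 20 points with overlapping libraries, among them AT5G08750 at 59.2 points and AT1G71710 at -55.6 points. In all, 242 eligible loci (10.7%) had WT groups that did not overlap, at any size of difference. Of the members, 38 have 2 models and 20 have 3 or more, and the annotated span of 19 overlaps another gene.

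**Figure D2:**
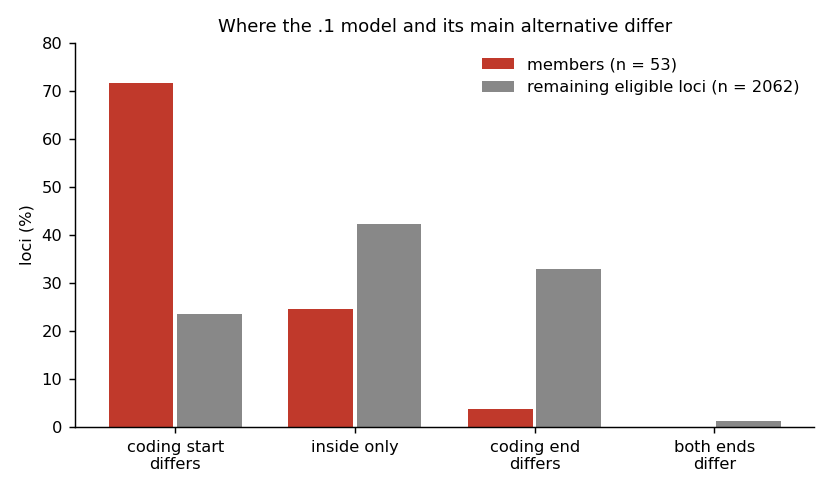
Percent of loci by where model 1 and the most abundant other model differ, in the 53 members (red) and the 2062 remaining eligible loci (grey) that matched the reference annotation. The coding start differed and the stop was the same in 71.7% of members and 23.5% of the rest.

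Beyond the rule, many members are alike in where their models differ, and so are the loci that met the rule in sid2. Coding models of 53 of the 58 could be matched by name and coding length to TAIR10.1, and AT4G32270, RAP74, AT5G51620, SR34b and CYSB could not. The coding start differed and the stop was the same in 38 of 53 (71.7%), against 485 of 2062 remaining loci (23.5%). Models differed only inside in 13 (24.5%), against 873 (42.3%), and in the coding end in 2 (3.77%), against 678 (32.9%). A differing start was not particular to the members. The rule was met in sid2 by 61 loci, 10 of them members, and the start differed in 74.1% of those matched. The stretch that differs lay at a median of 11.7% of the coding span from the start in members and at 58.5% in the remaining loci. The median of the difference in coding length was 126 bases in members and 78 bases in the rest. No test was made of these shares, since members share libraries and the estimates of all models come from the same reads. Over the alternative rules the percent of members whose starts differ lay between 61.8% and 76.5%.

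Among these 38, the model with the longer 5′ end was lower in WT latB in 31 and higher in 7 (AT1G22180, AT1G70480, AT2G46320, AT3G05220, AT3G27770, EDS1 and MYA2). Its mean share was 46.7%, 50.8% and 51.0% in the WT latB libraries, against 67.7%, 68.7% and 68.0% in the WT DMSO libraries. In sid2, which the rule did not use, it went the other way, with 65.7%, 75.4% and 70.7% in sid2 latB, against 60.3%, 55.4% and 57.7% in sid2 DMSO. The longer model was higher in sid2 latB in 27 of the 38 and lower in 9. These are means over loci that share libraries, and no test was made of them.

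The remaining loci whose starts differ showed the same directions on average, by smaller amounts. Over these 485 loci the mean share of the longer model was 53.5%, 53.0% and 52.3% in WT latB, against 52.9%, 58.6% and 58.8% in WT DMSO. It was 58.9%, 63.4% and 59.8% in sid2 latB, against 54.7%, 52.9% and 50.8% in sid2 DMSO. WT DMSO replicate 1 thus lay with the WT latB libraries. The longer model was lower in WT latB in 308 of these loci and higher in 131, and higher in sid2 latB in 332 and lower in 109. Over the 678 loci whose coding ends differ, it stayed within 80% to 81.2% in all 12 libraries.

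A measure of the libraries moved with these shares. The tables give each model an effective length, the length corrected for fragment size and sequence-dependent coverage, and the gap between length and effective length can be read for each library. For models over 1500 bases with reads, its median was 800, 773 and 816 bases in WT latB, against 783, 716 and 716 bases in WT DMSO. In sid2 it was 718, 671 and 696 bases in sid2 latB, against 770, 762 and 762 bases in sid2 DMSO. The libraries with a wide gap, WT DMSO replicate 1 included, are those where the longer model had a low mean share over the 485 loci. The part of this gap in the member differences was not tested.

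**Figure D3:**
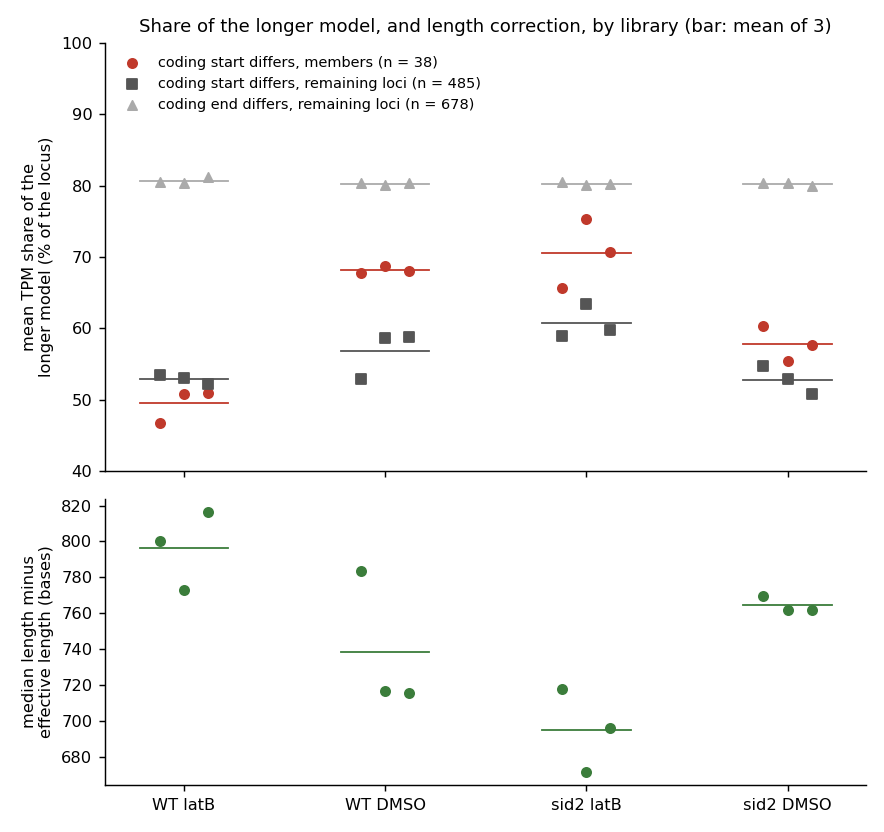
Top, mean share (%) of the longer model in each library, for 38 members whose coding starts differ (red), 485 remaining loci whose starts differ (dark grey) and 678 whose ends differ (light grey). Where model 1 is the shorter, the share is that of all other models together. Bottom, median length minus effective length (bases) of models over 1500 bases; each point is a library and bars are means of 3, and WT DMSO replicate 1, the leftmost point of its group, lies with WT latB in the lower panel and among the dark grey points.

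In sid2, latrunculin B against DMSO asks whether the same loci switch without the salicylic acid that ICS1 provides. The model 1 share differed in the opposite direction to WT in 43 members and in the same direction in 13, while PAS2 and AT5G09510 stood at 100% in all sid2 libraries. Opposite signs made up 76.8% of members with a difference in both genotypes, and 56.6% of the remaining eligible loci (881 opposite, 676 the same). By the rule itself, 61 eligible loci differed in sid2 (2.69%), 20 with a lower share (0.881%) and 41 with a higher one (1.81%). Without a limit on size, 211 loci (9.3%) had sid2 groups that did not overlap. The 61 include 10 members, which are 17.2% of the members and 16.4% of the 61. Of these 10, 9 differed in the opposite direction to WT and AT1G70480 in the same. Of the 61, 58 matched the annotation, and the coding start differed in 43 (74.1%), with the longer model higher in sid2 latB in 42 and lower in 1.

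**Figure D4:**
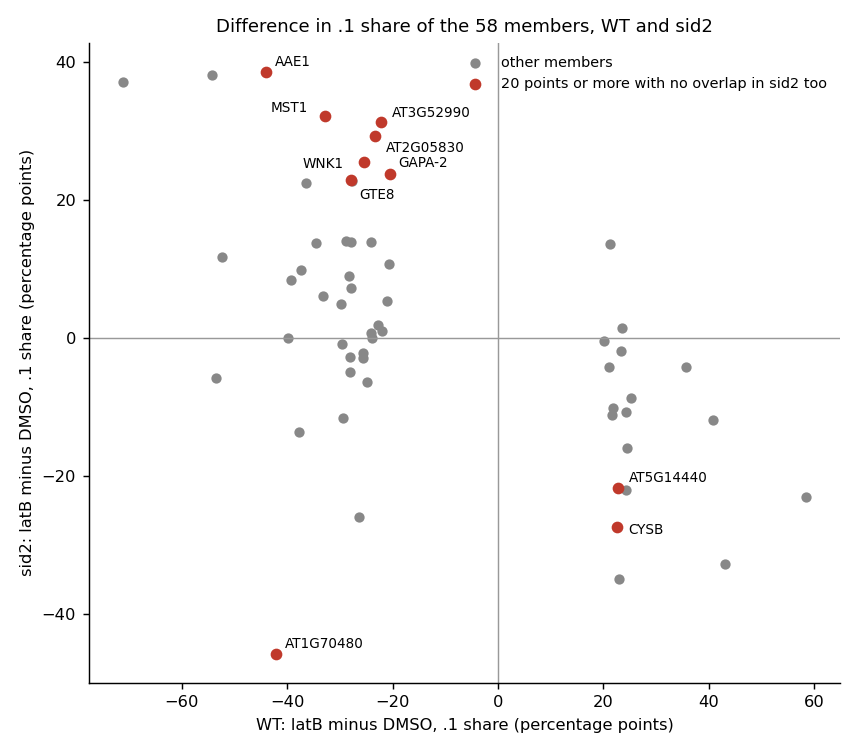
Difference in model 1 share, latB minus DMSO in percentage points, in WT (horizontal) and sid2 (vertical) for the 58 members, each a point. The gap around 0 on the horizontal axis is set by the rule; red points are the 10 members that met it in sid2 too, of which 9 lie in the upper left or lower right and AT1G70480 in the lower left.

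The contrasts between genotypes share libraries with the WT comparison and are given as a description. The rule was met by 102 loci in sid2 latB against WT latB (4.5%, with 1.23% lower and 3.26% higher), 36 of them members. It was met by 37 loci in sid2 DMSO against WT DMSO (1.63%, with 0.749% lower and 0.881% higher), 12 of them members. The libraries did not overlap in 14% of the eligible loci in sid2 latB against WT latB and in 7.01% in sid2 DMSO against WT DMSO.

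AT3G52990, annotated as a pyruvate kinase, had a model 1 share of 55.9%, 64.8% and 55.0% in sid2 latB, against 28.5%, 26.03% and 27.4% in sid2 DMSO. In WT it had 15.5%, 23.9% and 20.2% in WT latB, against 45.7%, 30.4% and 50.4% in WT DMSO. AAE1 had 52.6%, 79.5% and 42.7% in sid2 latB, against 34.6%, 15.8% and 8.46% in sid2 DMSO. In both loci the sid2 groups do not overlap, and neither do the WT groups, as the rule required. The direction is opposite between the genotypes. AT1G70480 had 38.9%, 0% and 52.6% in sid2 latB, against 77.9%, 53.4% and 97.6% in sid2 DMSO, lower with the drug as in WT.

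For EDS1, SYP121, MYA2, COR15A, AT3G57890 and UFD1 the sid2 groups overlapped or touched. EDS1 had a model 1 share of 49.3%, 58.3% and 47.9% in sid2 latB, against 35.2%, 86.0% and 46.8% in sid2 DMSO. SYP121 had 100%, 100% and 89.9% in sid2 latB, against 84.2%, 100% and 100% in sid2 DMSO. MYA2 had 26.1%, 71.6% and 0% in sid2 latB, against 32.1%, 72.1% and 0% in sid2 DMSO, so the spread within each group exceeded the difference between them. COR15A had no reads of model 1 assigned in any sid2 latB library, against 19.4%, 16.0% and 0% in sid2 DMSO. AT3G57890 had 100% in each sid2 latB library, against 59.5%, 29.0% and 100% in sid2 DMSO. UFD1 had 32.6%, 0% and 0% in sid2 latB, against 63.8%, 37.9% and 29.2% in sid2 DMSO.

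**Figure D5:**
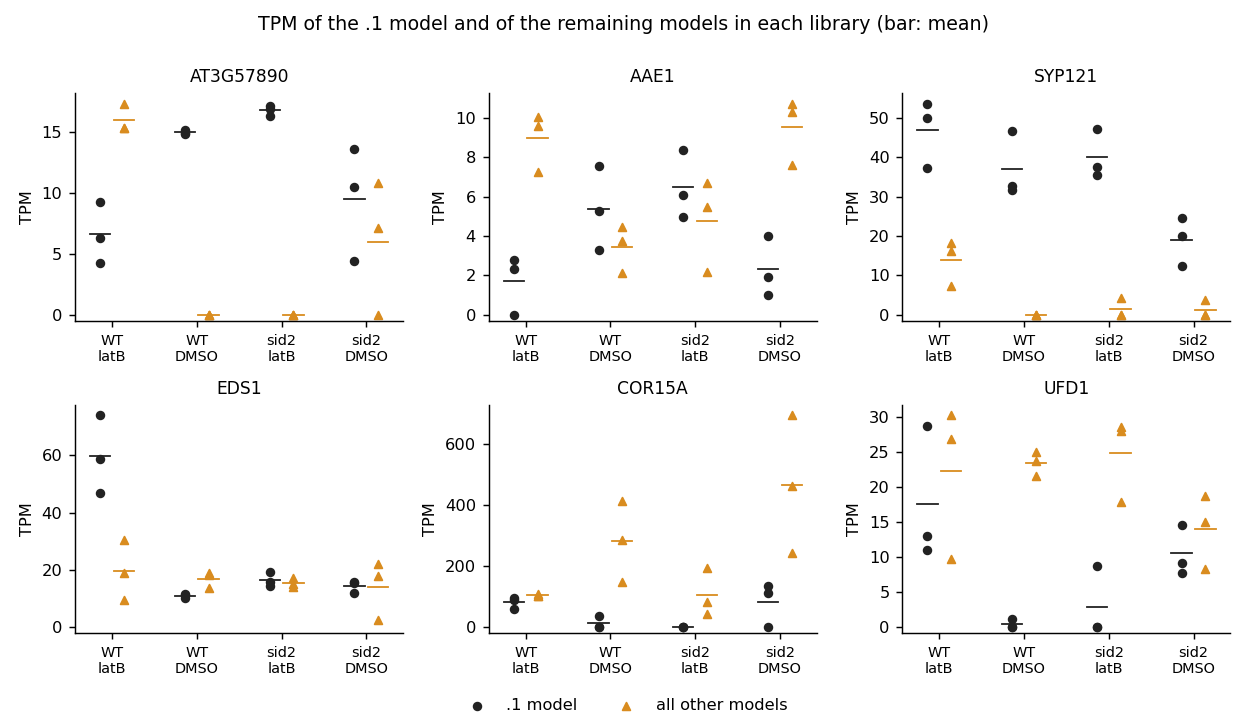
TPM of model 1 (black circles) and of all other models together (orange triangles) in each of the 12 libraries for 6 members; bars are means of 3. In EDS1 model 1 stands at 46.7 TPM or more in WT latB, above every other value of the panel; in AT3G57890 and SYP121 the other models stand above 0 in all 3 WT latB libraries and in none of WT DMSO.

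The use of model 1 against the remaining models of its locus was tested in sid2 with edgeR's quasi-likelihood fit and diffSpliceDGE over 1763 eligible loci, all 58 members included. After Benjamini-Hochberg adjustment 0 loci passed 0.05 (0%), and the adjusted p was 1.0 for each member. Without adjustment 42 loci (2.38%) had a p under 0.05, among them the members GTE8, AT3G52990, CYSB and COR15A. Several alternatives were run, and the calls of 2 are given. The first, limma's voom and diffSplice, called 24 loci (1.36%). Its members were AT3G52990 (log2 1.90, adjusted p = 0.0107), GAPA-2 (log2 2.33, adjusted p = 0.0168) and CYSB (log2 -1.75, adjusted p = 0.0168). The main edgeR fit gave smaller log2 values for the same loci, 1.05 for AT3G52990, 0.41 for GAPA-2 and -1.11 for CYSB. A test in edgeR of any change in usage over the locus called 11 (0.624%), with AT3G52990 (adjusted p = 0.0157), AT3G57890 (0.0465), GAPA-2 (0.0471) and CYSB (0.0471). AT3G52990, GAPA-2 and CYSB were thus called in sid2 by both of these alternatives and not by the main test. Their sid2 share differences were opposite to WT, but the locus-wide test gives no direction and was chosen after seeing the data. AT3G57890, which has 2 models, had an unadjusted p of 0.362 in the main edgeR test, and its sid2 groups touched. The locus-wide calls are therefore not separate support for a switch. The spread was wide: the common coefficient of variation was 0.836 between libraries for models and 0.211 for whole loci. The median over members of the SD of the model 1 share was 9.19 points in WT latB, 8.75 in WT DMSO, 10.3 in sid2 latB and 12.8 in sid2 DMSO. Over all eligible loci it was lower, at 1.849 points in WT latB, 1.555 in WT DMSO, 1.558 in sid2 latB and 2.085 in sid2 DMSO.

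Whole-locus levels of the members differed both ways. In WT, a contrast that the rule used, 17 members were higher and 17 lower at an adjusted p under 0.05 in edgeR. Of the 18149 loci tested 22.1% were higher and 22.7% lower, and of the eligible loci 24.8% and 26.8%. These counts are a description. The median log2 difference was 0.07 over members and -0.01 over all loci, and single members ran from -1.47 to 1.91. On log2(TPM + 1) with limma the median of all loci moved to 0.31, and the split of all loci was 6942 higher and 2395 lower in place of 4012 and 4115. MYA2 had 124, 130 and 134 CPM in WT latB, against 61.0, 67.0 and 63.3 CPM in WT DMSO. EDS1 had 144, 152 and 147 CPM in WT latB, against 71.3, 56.4 and 71.8 CPM in WT DMSO. The log2 difference was 1.02 for MYA2 and 1.15 for EDS1. Their model 1 shares differed in opposite directions, but in both loci the model with the longer 5′ end had the higher share in WT latB. In bulk leaf RNA, fewer cells of a type and less RNA per cell cannot be told apart.

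In sid2, 2 members rose and 1 fell, against 3.53% and 1.21% of the 18149 loci and 2.6% and 2.03% of the eligible loci. EBS1 had 59.7, 57.9 and 62.6 CPM in sid2 latB, against 42.7, 40.6 and 43.0 CPM in sid2 DMSO (log2 0.51 ± 0.11 SE, adjusted p = 0.0160 in edgeR). SYP121 had 62.6, 79.1 and 69.8 CPM in sid2 latB, against 44.0, 23.6 and 45.8 CPM in sid2 DMSO (log2 0.90 ± 0.22 SE, adjusted p = 0.0339 in edgeR). COR15A had 33.6, 76.0 and 16.6 CPM in sid2 latB, against 269, 385 and 129 CPM in sid2 DMSO (log2 -2.63 ± 0.53 SE, adjusted p = 0.0136 in edgeR). The groups did not overlap for any of the 3. Leaving out single libraries ended the SYP121 call in each case but sid2 DMSO replicate 3 (adjusted p 0.0532 to 0.107). It ended the EBS1 call without sid2 latB replicate 1 (0.0608), sid2 latB replicate 3 (0.0711) or sid2 DMSO replicate 2 (0.0586), and the COR15A call without sid2 latB replicate 1 (0.0649).

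In the edgeR fit, genes of splicing and RNA surveillance showed no common direction in WT. Of 57 genes in 4 lists, 7 rose and 6 fell in WT latB against WT DMSO (edgeR, adjusted p under 0.05), against 22.1% and 22.7% of all loci, with a median log2 difference of 0.03 over the lists and -0.01 over all loci. Of 7 entries left out because the reference does not give their name for their ID, 2 were higher, AT1G60900 (log2 0.58, adjusted p = 0.00443 in edgeR) and AT2G39260 (log2 0.47, adjusted p = 0.00885 in edgeR), and 0 lower. Among the 20 SR proteins, RS31 (log2 0.72 ± 0.14 SE), SCL33 (0.70 ± 0.16), SR30 (0.47 ± 0.11) and the member SR34b (0.51 ± 0.19) rose and RSZ33 (RS2Z33 in the reference annotation) fell (-0.49 ± 0.12). Of 12 other RNA-binding regulators, GRP8 rose (0.58 ± 0.20) and GRP7 (-0.77 ± 0.27) and RBP45B (-0.44 ± 0.12) fell; GRP7 and GRP8 are clock-linked glycine-rich proteins that act on each other's splicing. Of 18 spliceosome genes, LSM4 rose (0.44 ± 0.15), and the arginine methyltransferase PRMT5 (-0.93 ± 0.20) and MAC3B (-0.35 ± 0.12) fell. Among the surveillance genes, the cap-binding gene CBP20 fell (-0.45 ± 0.16). On log2(TPM + 1) with limma the lists gave 26 higher and 0 lower in WT, where the median log2 difference of all loci was 0.31. The summed TPM of the 4 lists was 1916 to 2331 in WT latB, against 1587 to 1619 in WT DMSO. In sid2, RBP47B alone passed, and rose (log2 0.88 ± 0.16 SE, adjusted p = 0.00897), with 0 lower.

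Cell type markers moved between the WT groups too. All 4 mesophyll markers fell in WT latB, and their summed TPM was 23330 to 31260 in WT latB, against 49010 to 54100 in WT DMSO. Of the guard cell markers KAT1 rose and FAMA and MYB60 fell, with a summed TPM of 37.3 to 52.8 in WT latB, against 10.3 to 14.8 in WT DMSO. Both epidermal markers that could be tested, ATML1 and CER5, and the xylem marker XCP1 fell as well, and no phloem marker passed in WT. In sid2 the mesophyll sums overlapped (43280 to 51370 in sid2 latB and 41960 to 50990 in sid2 DMSO). Of the phloem markers SUC2 and APL fell there, with a summed TPM of 73.6 to 82.7 in sid2 latB, against 135 to 141 in sid2 DMSO. Root markers summed to 0.0992 TPM or less in every library, and 2 of 3 were at 0 throughout. The part of cell type makeup in the member differences was not tested.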

How the data were processed

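RNA from 12 rosette leaf samples was sequenced (RNeasy Mini and NEBNext Ultra II Directional kits, per the labels' protocols). Reads were trimmed with Trimmomatic and quantified with Salmon 1.3.0, and TAIR10 is the build named, per the submitters' processing notes. For each library the deposited tables give, for 32875 coding models, length, effective length, TPM and estimated counts. The authors' TPM values sum to 1000000 in each library; the deposited estimated counts, of which 83.8% are whole, were rounded here to whole numbers. Of the model lengths 99.99% are multiples of 3, so the lengths are coding lengths and untranslated regions cannot be seen. Salmon divides reads between overlapping models, and the error of that division is not in the tables. A model that only lacks the first coding bases of another has no stretch of its own, so its TPM rests on that division.

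Shares were computed from TPM. Usage in sid2 was tested on estimated counts with edgeR 4.0.16 (glmQLFit, diffSpliceDGE, TMM, models with 10 or more reads over the 12 libraries), and locus levels with glmQLFTest after filterByExpr. All 12 libraries entered 1 model with a mean per group, and p-values were Benjamini-Hochberg adjusted over all loci tested, with a threshold of 0.05. limma 3.58.1, DESeq2 1.42.0, R 4.3.3, Python 3.11.15 and pandas 2.3.3 served the alternatives and tables. Tests were also tried on counts simulated from the mean levels in these data, with an outcome that is not given here. Model structure and sequences came from the RefSeq annotation of TAIR10.1.

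The members and lists were chosen with earlier results of these data known. Named by rule were the 12 members with the largest difference in each direction, those just inside and outside the threshold, and up to 5 genes per list; 7 list entries, whose name is neither the symbol nor a listed synonym of their ID in the reference, were left out. Every other member named with values was chosen after its values were seen. The WT and the sid2 comparison share no samples. Library totals of 14506962 to 22449387 reads set the counting error, which is not the whole error. Replicate numbers only name the libraries of a group, in accession order. The result of 1 list gene is not reported here.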

Additional observations from a re-analysis of the deposited data

Results flagged for a closer look

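In 9 members the libraries of sid2 latB and sid2 DMSO did not overlap and the model 1 share differed in the opposite direction to WT. Of all eligible loci, 211 (9.3%) had sid2 groups that did not overlap, and 61 (2.69%) met the rule in sid2. Whether the 2 genotypes differ was not tested. In AAE1, MST1, AT3G52990, AT2G05830, WNK1, GAPA-2 and GTE8 the coding start differs and model 1 is the longer model. Length minus effective length was 770, 762 and 762 bases in sid2 DMSO, against 718, 671 and 696 bases in sid2 latB. In WT it was 800, 773 and 816 bases in WT latB, against 783, 716 and 716 bases in WT DMSO. The part of this measure in the differences was not tested. The sid2 difference, latB minus DMSO, was 38.6 points in AAE1, 32.2 points in MST1, 31.3 points in AT3G52990 and 29.4 points in AT2G05830. It was 25.5 points in WNK1, 23.8 points in GAPA-2 and 23.0 points in GTE8. In CYSB it was -27.4 points and in AT5G14440 -21.6 points. No member's use of model 1 passed edgeR's test in sid2.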

How the results depend on the processing

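The 58 members became 94 at a summed TPM of 1, 38 at 10, 125 at a difference of 0.1 and 18 at 0.3, and 75 to 110 without single replicates. Use of model 1 in sid2 passed in 0 loci in the main edgeR fit and in 24 by voom (3 members). The locus-wide test of any change in usage, chosen after seeing the data, called 11 (4 members). Usage was also fitted with other size factors, other read minimums and limma on the TPM ratio. Further fits used the 6 sid2 libraries alone or left out single sid2 replicates. The outcome of these further usage settings is not given here. The 640 loci higher in sid2 latB became 1067 in DESeq2, 975 in limma on log2(TPM + 1), 270 in the 6 libraries alone and 308 to 1009 without single replicates. The 219 lower became 511, 107, 88 and 56 to 463; both highest counts came without sid2 DMSO replicate 3. Of members, 2 were higher in sid2 (limma 4, the 6 libraries 0, single replicates left out 0 to 3) and 1 lower (0 to 4). Of the lists, 1 was higher in sid2 (limma 2) and 0 lower (DESeq2 1, single replicates left out 0 to 1). In WT, limma gave 6942 loci higher and 2395 lower in place of 4012 and 4115, 29 and 11 members in place of 17 and 17, and 26 and 0 list genes in place of 7 and 6. Leaving out single replicates gave 4 to 6 list genes higher and 3 to 5 lower. MAC3B turned to 0.0499 (log2, adjusted p = 0.765) in limma. The cause of these changes was not tested. The count of 43 members with opposite signs stayed between 40 and 47. No paired analysis was possible because the labels carry no replicate numbers.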
